A study of Mus musculus with 5 samples.

Results

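RAW264.7 cells, which are macrophage-like and come from mouse, that had been given LPS together with arctigenin were set against the same line given vector, across every gene with at least 10 estimated counts in at least 1 of the 3 libraries involved. There were 11513 such genes among 21878 gene symbols in the deposited table. Just inside that limit, 76 genes had 10 as their highest count, at a median of 0.319 CPM (counts scaled to library size, with TMM factors) with LPS and arctigenin and 0.358 CPM with vector. Just outside it, 82 genes had 9 as their highest count, at medians of 0.290 CPM with LPS and arctigenin and 0.339 CPM with vector. By library, 10860 and 10880 genes reached 10 counts with LPS and arctigenin and 11139 with vector.

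The groups were 2 libraries from cells with LPS and arctigenin (0.5 mg/mL LPS and 1 μM arctigenin, as labelled), 2 libraries from cells with LPS alone at that dose, and 1 library from cells with vector. All cells were grown with serum and antibiotics. The labels name no time of treatment, do not say what vector contained and name no group with arctigenin alone, so the effect of arctigenin without LPS was not analysed here, and vector is not read as the solvent of arctigenin. Nothing in the labels says that replicates were cultured apart, and the p-values therefore speak only of the spread among these libraries, which may be technical. The LPS libraries entered the fit because the single vector library has no spread of its own, and their values are set beside the main comparison. Totals were 19956044 and 19836203 estimated counts with LPS and arctigenin, 20783939 and 20496183 with LPS, and 21578355 with vector. Replicates differed by more than counting noise alone would give, the chi-square over its degrees of freedom being 8.21 for the LPS with arctigenin pair and 5.12 for the LPS pair.

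LPS, a lipid of the outer membrane of Gram-negative bacteria, is bound by CD14 and MD-2 and signals through TLR4. One arm of the pathway, through MyD88, activates NF-kB and MAP kinases and induces cytokines within minutes to hours. The other arm, through TRIF, induces interferon beta, which acts back on the cell and turns on the interferon-stimulated genes. Arctigenin is a plant lignan described as anti-inflammatory. Prolonged LPS is also known to slow the division of macrophages and to shift their metabolism toward glycolysis.

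The cells carried macrophage markers in every library. The lineage factor Spi1 (PU.1) had 277 and 294 CPM with LPS and arctigenin and 231 CPM with vector, and the lysosomal glycoprotein Cd68 had 903 and 932 CPM against 800.2 CPM. The receptor tyrosine kinase Csf1r, the integrin Itgam and lysozyme (Lyz2) were also detected in all 5 libraries. With LPS and arctigenin, Itgam was higher than vector, but Csf1r and Lyz2 were lower, with values given below under macrophage identity. Of 33 markers of other cell types, 15 and 11 were at 0 in the LPS with arctigenin libraries and 10 in the vector library, including the T cell genes Cd3e and Cd3g, the epithelial gene Epcam and the neutrophil genes Elane and Ly6g, which were at 0 in all 5 libraries. The summed level of the 33 was 95.6 and 116 CPM with LPS and arctigenin and 8.25 CPM with vector. S100a8, a calcium-binding protein of myeloid cells, made up most of the sum with LPS and arctigenin but not with vector, at 88.04 and 107 CPM with LPS and arctigenin and 2.87 CPM with vector. In bulk RNA, a change in the share of cells that express a gene cannot be told apart from a change in RNA per cell.

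In edgeR (quasi-likelihood test, Benjamini-Hochberg adjustment), 3522 members were higher and 2978 lower with LPS and arctigenin than with vector at an adjusted p under 0.05. Another 4967 members were not called, and 46 members were not tested because they did not pass the count filter. Over all 11575 genes tested, 56.2% were called, 30.4% as higher and 25.7% as lower, and the median log2 fold change was 0.03. Most changes were small: 2373 of the 3522 calls upward and 1796 of the 2978 calls downward lay below 1 on the log2 scale. At 1 or more, 9.94% of genes tested were called higher and 10.2% lower. Of the 4967 members not called, 2047 had a 95% interval of the log2 fold change that lay wholly within 0.5 of 0.

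Genes that rose took a larger part of the counts than genes that fell. Genes called at least 2-fold higher took 22.0% and 21.4% of all counts with LPS and arctigenin, 20.5% and 20.6% with LPS and 8.29% with vector. Genes called at least 2-fold lower took 2.07% and 2.26% with LPS and arctigenin, 3.49% and 3.39% with LPS and 7.57% with vector. These shares follow from how the genes were chosen and carry no test. Of the 11513 members, 374 had 10 or more counts in at least either LPS with arctigenin library but not in vector. Another 426 had 10 or more counts in vector only. These counts were not scaled to library size, and a gene with 10 counts against 9 is included. Vector had the largest total, 21578355 estimated counts. What part the cut-off and the depth had in these numbers was not tested. The median log2 fold change was 0.22 in the fifth of genes with the longest transcripts, where 41.7% were called higher, and 0.02 in the fifth with the shortest, where 27.2% were; the part of transcript length in the calls was tested as an alternative given at the end.

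**Figure D1:**
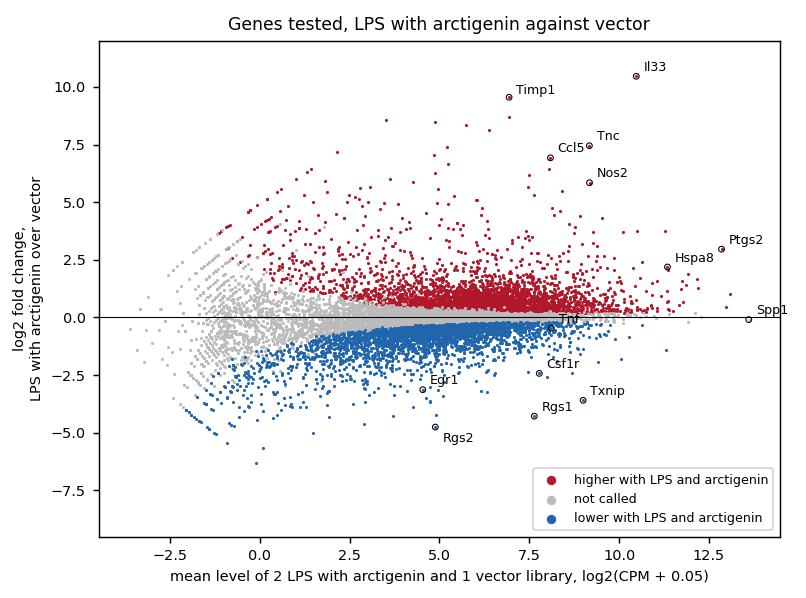
Each point is a gene tested, with its mean level in the 2 LPS with arctigenin libraries and the vector library on the x axis (log2 of CPM plus 0.05) and its log2 fold change over vector on the y axis, red where called higher, blue where called lower and grey where not called. Genes with 0 counts in vector or in both LPS with arctigenin libraries are not drawn. Il33 lies at 10.46 and Rgs2 at −4.75, while Spp1, at the right edge, lies near 0.

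The most abundant transcripts of the cells with LPS and arctigenin included both genes that rose and a gene that was not called. Spp1, osteopontin, a secreted phosphoprotein of macrophages, had 11772 and 12658 CPM with LPS and arctigenin, 12564 and 12884 CPM with LPS and 13028 CPM with vector. It was not called (log2 −0.09, 95% interval −0.25 to 0.07, adjusted p = 0.296, edgeR). Ptgs2, the inducible cyclooxygenase that starts prostaglandin synthesis, had 10831 and 9975 CPM, 13562 and 14290.1 CPM with LPS and 1335 CPM with vector, a 7.79-fold rise (log2 2.96 ± 0.09, SE, adjusted p = 8.39e-09, edgeR). Ferritin heavy chain (Fth1), which stores iron, rose 2.05-fold and the chemokine Ccl9 rose 3.17-fold. The elongation factor Eef1a1 rose 1.38-fold.

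The largest rises over vector included Il33, Timp1, Col5a3 and Tnc. Il33, an interleukin-1 family alarmin, had 2351 and 1923 CPM with LPS and arctigenin, 1629 and 1663 CPM with LPS and 1.51 CPM with vector, where 38 counts stood behind it. Every stimulated library was far above vector, and the log2 fold change was 10.46 ± 0.22 (SE, adjusted p = 5.91e-09, edgeR). On build mm9 its gene model lies on chromosome 19 from 29999604 to 30035194. Timp1, an inhibitor of matrix metalloproteinases on chromosome X from 20447292 to 20451861, had 211 and 156 CPM, 83.4 and 83.2 CPM with LPS and 0.239 CPM with vector (log2 9.55 ± 0.37). The collagen chain Col5a3 had 212 and 155 CPM, 64.5 and 68.9 CPM with LPS and 0.438 CPM with vector (log2 8.69 ± 0.36). Tenascin C (Tnc), a matrix glycoprotein on chromosome 4 from 63620819 to 63681760, had 996 and 729.8 CPM, 227 and 228 CPM with LPS and 4.94 CPM with vector (log2 7.45 ± 0.27).

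Further large rises followed. The chemokine Ccl5 rose 121-fold (adjusted p = 9.4e-06) and the mannose receptor Mrc1, an endocytic lectin, rose 99.9-fold (adjusted p = 4.35e-08), to 61.2 and 51.5 CPM with LPS and arctigenin, against 0.558 CPM with vector. The scaffold protein Akap12, which anchors protein kinase A, rose 170.2-fold, and the interferon-inducible Ifi205 rose 133-fold. A few of these genes had almost no counts in vector. Hamp, which encodes the iron hormone hepcidin, had 1 count there, and the ratio was 430.2 (95% counting interval 76.9 to 17019). For endothelial lipase (Lipg), with 3 counts there, the ratio was 369 (126 to 1791), and for the carbonic anhydrase Car4, with 1 count, 164 (29.2 to 6513). Crispld2, a secreted LPS-binding protein, had 0 counts in vector. It had 34.97 and 25.04 CPM with LPS and arctigenin and 2.16 and 1.76 CPM with LPS. Its pooled level with LPS and arctigenin was 251-fold over a floor of 3 vector counts. This fold was 210 without LPS with arctigenin replicate 1 and 293 without replicate 2.

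The falls reached less far. Rgs2, a regulator that shortens G-protein signalling, fell 26.96-fold, to 3.30 and 2.79 CPM with LPS and arctigenin and 6.77 and 9.08 CPM with LPS, against 82.3 CPM with vector (log2 −4.75 ± 0.18, adjusted p = 3.94e-08, edgeR). Its neighbour in the family, Rgs1, had 28.3 and 27.5 CPM, 121 and 130.4 CPM with LPS and 542 CPM with vector (log2 −4.28 ± 0.08, adjusted p = 7.29e-10). Both gene models lie on the minus strand of chromosome 1 on build mm9, Rgs1 from 146091102 to 146096372 and Rgs2 from 145846468 to 145851291. Txnip, an inhibitor of thioredoxin and of glucose uptake on chromosome 3 from 96361880 to 96365806, had 109 CPM in both libraries with LPS and arctigenin, 390.1 and 321 CPM with LPS and 1316 CPM with vector (log2 −3.59 ± 0.10). The vector library was highest for all 3 genes and the LPS with arctigenin libraries were lowest.

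The remaining large falls included several genes of lipid handling and transport. Acot2, a mitochondrial acyl-CoA thioesterase, fell 19.4-fold, and Soat2, which esterifies cholesterol, fell 11.1-fold. Gpr84, a receptor for medium-chain fatty acids, fell 18.5-fold to 4.58 and 4.22 CPM, against 81.7 CPM with vector. The amino acid transporter Slc1a4 fell 10.6-fold, the lysosomal transporter Slc46a3 13.3-fold, the histone deacetylase Hdac9 14.8-fold, the small GTPase relative Arl11 12.7-fold and Yipf7 10.4-fold. Angptl6, a secreted angiopoietin-like protein, fell 12.3-fold, and its log2 fold change of −3.62 became −4.21 without LPS with arctigenin replicate 2.

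**Figure D2:**
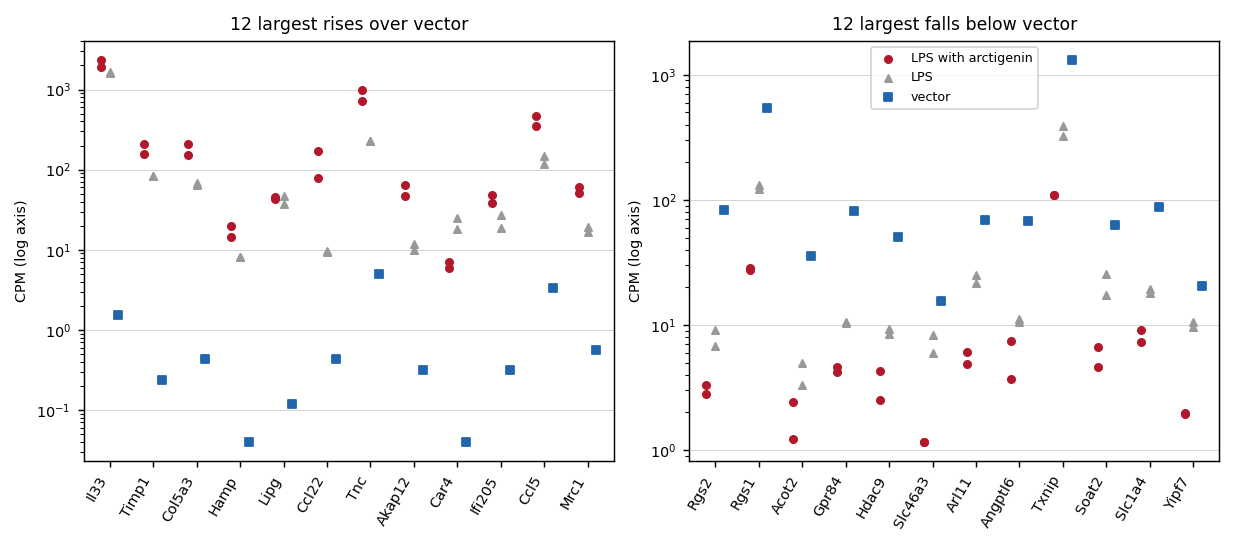
CPM on a log axis for the 12 largest rises (left) and the 12 largest falls (right) among genes called, with a mean log2 CPM of at least 2 over the 5 libraries. Red circles are the 2 LPS with arctigenin libraries, grey triangles the 2 LPS libraries and the blue square the vector library, and for the falls the red circles lie at or below the triangles throughout.

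Since the LPS libraries were fitted beside these, each difference from vector can be read with the difference between LPS with arctigenin and LPS alone, which was tested in the same fit and called for 44.8% of genes tested, 22.8% higher and 22.0% lower. Some genes stood above both other groups. Ccl22, a chemokine for CCR4 on chromosome 8 from 97269490 to 97275599, had 169 and 79.7 CPM with LPS and arctigenin, 9.36 and 9.59 CPM with LPS and 0.438 CPM with vector. The log2 fold change was 8.13 ± 0.80 over vector (adjusted p = 0.000265), or 7.49 without LPS with arctigenin replicate 1, and 3.71 over LPS (adjusted p = 0.000590). Bzrap1 had 48.5 and 47.6 CPM, 5.39 and 5.27 CPM with LPS and 2.47 CPM with vector, 19.4-fold over vector and 9.01-fold over LPS. Tnfrsf9 (4-1BB), a costimulatory receptor, had 200.3 and 169 CPM, 42.02 and 41.01 CPM with LPS and 18.1 CPM with vector, 10.2-fold over vector and 4.45-fold over LPS. Tnc, Akap12 and the heat shock gene Hspa1b completed the 6 highest above both among genes with a mean log2 CPM of at least 2 over the 5 libraries, a limit that leaves out Crispld2 at 15.3-fold over LPS.

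Other genes stood below both. Egr1, an immediate early transcription factor induced through ERK, had 6.39 and 6.48 CPM with LPS and arctigenin, 75.9 and 79.7 CPM with LPS and 56.5 CPM with vector. It was 8.77-fold below vector (log2 −3.13 ± 0.11, adjusted p = 2.68e-08) and 12.1-fold below LPS (adjusted p = 1.1e-07). Aqp9, a channel for water and glycerol, had 2.55 and 5.59 CPM, 19.8 and 20.7 CPM with LPS and 31.9 CPM with vector (log2 −2.97 over vector, or −3.64 without LPS with arctigenin replicate 2). The ubiquitin ligase Nedd4l had 2.18 and 2.16 CPM, 9.27 and 10.99 CPM with LPS and 12.5 CPM with vector, a 5.76-fold fall. Rgs1, Slc46a3 and Yipf7 completed the 6 lowest below both under the same limit on level, which leaves out Atp6v0d2, at 14.7-fold below vector and 14.97-fold below LPS.

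Edn1, which encodes the vasoconstrictor endothelin-1, followed neither pattern. It had 1.70 and 1.42 CPM with LPS and arctigenin, 37.9 and 34.9 CPM with LPS and 0.717 CPM with vector, so that the LPS libraries alone were high. The difference from vector was small (log2 1.12 ± 0.33, adjusted p = 0.0149, edgeR) and lost its call with limma-voom (adjusted p = 0.124), with only the vector and LPS with arctigenin libraries (adjusted p = 0.212) and without LPS with arctigenin replicate 1 (adjusted p = 0.0514). Against LPS it was 23.2-fold lower (adjusted p = 2.44e-07).

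Gene lists by function were then read against the shares over all genes tested, 30.4% called higher and 25.7% called lower. The lists were written with earlier results of these data known, and no set was tested as such.

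Most cytokines were higher. Of 24 cytokine genes tested of 25 listed, 18 were higher and 4 lower, with a median log2 fold change of 1.74. Lif, a cytokine of the interleukin-6 family, had 274 and 249 CPM with LPS and arctigenin, 131 and 132 CPM with LPS and 5.14 CPM with vector, a 50.9-fold rise (adjusted p = 1.66e-09, edgeR). Il6 itself had 62.8 and 49.3 CPM, 82.2 and 97.6 CPM with LPS and 1.83 CPM with vector, a 30.5-fold rise (adjusted p = 9.38e-07). Both rose far above vector, but Lif stood above its LPS level and Il6 below it. Il1b, the pyrogenic interleukin-1, had 865 and 569 CPM, 488 and 479 CPM with LPS and 78.4 CPM with vector (9.15-fold, adjusted p = 0.000129). Il10, which restrains macrophage activation, had 55.1 and 53.8 CPM, 165 and 171 CPM with LPS and 3.66 CPM with vector (14.8-fold). Il1rn, the natural antagonist of interleukin-1, rose 13.3-fold over vector and Csf3, the granulocyte growth factor, by 3.91 on the log2 scale. Ifnb1, interferon beta, and Il12b, the shared subunit of interleukins 12 and 23, had 0 counts in vector and were at least 5.54-fold and at least 7.54-fold higher, each below 2 CPM, and the call of Ifnb1 was lost without LPS with arctigenin replicate 1 (adjusted p = 0.0531). The bound for Il12b was 11.5-fold without LPS with arctigenin replicate 1 and 3.56-fold without replicate 2.

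Tumour necrosis factor went the other way. Tnf had 222 and 270.4 CPM with LPS and arctigenin, 507 and 559.9 CPM with LPS and 338 CPM with vector. Both LPS with arctigenin libraries lay below vector and both LPS libraries above it, with a log2 fold change of −0.46 ± 0.11 against vector (adjusted p = 0.00851) and −1.12 against LPS (adjusted p = 3.91e-05, edgeR). The other members called lower were Il23a, the partner of Il12b in interleukin 23, at 7.23-fold, the macrophage growth factor Csf1 at 6.54-fold, and lymphotoxin beta (Ltb) at 4.94-fold. Csf2, the granulocyte and macrophage growth factor, had 5.70 and 9.07 CPM with LPS and arctigenin, 41.97 and 42.5 CPM with LPS and 4.38 CPM with vector. Its call against vector (log2 0.75, adjusted p = 0.0338) was lost without LPS with arctigenin replicate 2 (log2 0.38, adjusted p = 0.136).

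Chemokine genes had the highest median of all lists but were also divided. Of 16 tested of 21 listed, 12 were higher and 3 lower, with a median log2 fold change of 3.04. The monocyte attractant Ccl2 had 266 and 259 CPM with LPS and arctigenin, 513 and 523 CPM with LPS and 37.9 CPM with vector (6.92-fold, adjusted p = 9.02e-09). Cxcl10, an interferon-induced attractant of T cells, had 519 and 332 CPM, 186 and 236 CPM with LPS and 19.4 CPM with vector (21.9-fold, adjusted p = 0.000102). Relative to LPS, Ccl2 was 1.97-fold lower and Cxcl10 was 2.02-fold higher. The neutrophil attractants Cxcl2 and Cxcl3 were below vector: Cxcl2 had 893 and 1088 CPM with LPS and arctigenin, 2178 and 2361 CPM with LPS and 1761 CPM with vector (log2 −0.83 ± 0.11, adjusted p = 0.000225), and Cxcl3 was 1.55-fold lower. Cxcl16, a membrane-bound chemokine, was 1.70-fold lower. Ccl12, with 2 counts in vector, had a ratio of 26.3 (counting interval 7.03 to 221). Ccl17, with 0 counts in vector, was 11.1-fold over the floor of 3 vector counts. This fold was 5.29 without LPS with arctigenin replicate 1 and 16.9 without replicate 2. The call of Ccl17 was lost with DESeq2 (adjusted p = 0.108) and without LPS with arctigenin replicate 1.

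The interferon-stimulated genes rose almost as a block. Of 42 tested of 44 listed, 40 were higher and 1 lower, and 35 were at least 2-fold higher, with a median log2 fold change of 1.86. Gbp5, a guanylate-binding GTPase, had 51.5 and 36.1 CPM with LPS and arctigenin, 31.3 and 36.8 CPM with LPS and 0.558 CPM with vector (77.7-fold, adjusted p = 4.2e-06). Gbp2 of the same family rose 30.9-fold. The RNA-binding antiviral genes Ifit3 and Ifit2 rose 26.7-fold and 21.03-fold. Rsad2 (viperin), an antiviral enzyme, had 246 CPM in both libraries, 550.3 and 615 CPM with LPS and 18.2 CPM with vector (13.5-fold), and the ubiquitin-like Isg15 had 226 and 194 CPM, 213 and 217 CPM with LPS and 18.6 CPM with vector (11.3-fold). Set against LPS alone, 14 members were higher and 13 lower. The antiviral genes Mx1 and Mx2 were not analysed here. The exception below vector was Irf1, a transcription factor, with 13.1 and 14.4 CPM with LPS and arctigenin, 38.2 and 42.4 CPM with LPS and 20.6 CPM with vector (log2 −0.58 ± 0.13, adjusted p = 0.00424). The GTPase gene Ifi47 was not called (log2 −0.13, 95% interval −0.54 to 0.29).

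Interferon-stimulated genes are known to carry the interferon-stimulated response element, 2 GAAA runs with 2 bases between them, where the factor ISGF3 binds. The letters GAAA, any 2 bases and GAAA again were searched on both strands of the RefSeq promoters, 250 bases before to 50 after each start on GRCm38.p6, and were found in 19 of 33 list members with a promoter (57.6%), against 3.52% of all 27025 promoters. Stretches of 4 promoters are shown because their genes rose over vector, each read along the gene's strand, 5′ to 3′, with the matches in capitals. The Isg15 stretch, chr4:156200852-156200931 on the minus strand, holds 3 matches that overlap. Ifit3 (chr19:34583338-34583417, plus strand) holds 2 matches in the reverse orientation, and Rsad2 (chr12:26456528-26456607, minus strand) and Gbp5 (chr3:142496734-142496813, plus strand) hold 1 each. A match is a description of the letters and not evidence of binding.
Isg15: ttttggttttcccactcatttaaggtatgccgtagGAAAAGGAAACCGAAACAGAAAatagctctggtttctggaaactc
Ifit3: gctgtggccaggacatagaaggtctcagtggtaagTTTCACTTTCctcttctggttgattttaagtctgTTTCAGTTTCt
Rsad2: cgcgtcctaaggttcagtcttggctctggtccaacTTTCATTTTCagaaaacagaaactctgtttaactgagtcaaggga
Gbp5: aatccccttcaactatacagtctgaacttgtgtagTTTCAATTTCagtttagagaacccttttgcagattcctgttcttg

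Enzymes of inflammatory mediators were mostly higher, 15 of 20, with 3 lower and a median log2 fold change of 1.98. Nos2, which makes nitric oxide, had 886 and 834 CPM with LPS and arctigenin, 666 and 705 CPM with LPS and 14.98 CPM with vector (57.4-fold, adjusted p = 7.29e-10, edgeR). Saa3, an acute-phase protein, rose 39.4-fold, Acod1, which makes itaconate, 13.2-fold, and Ptges, which makes prostaglandin E2 from the product of Ptgs2, 7.45-fold. The arginine transporter Slc7a2 and arginase 1 (Arg1) had 0 counts in vector and were 20.8-fold and 8.64-fold over the floor of 3 vector counts. For Slc7a2 this was 11.03-fold without LPS with arctigenin replicate 1 and 30.7-fold without replicate 2. Slc7a2 had 3.67 and 1.32 CPM with LPS and arctigenin and 6.62 and 6.17 CPM with LPS, whereas Arg1 had 1.01 and 1.05 CPM and 0.0490 and 0.251 CPM.

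**Figure D3:**
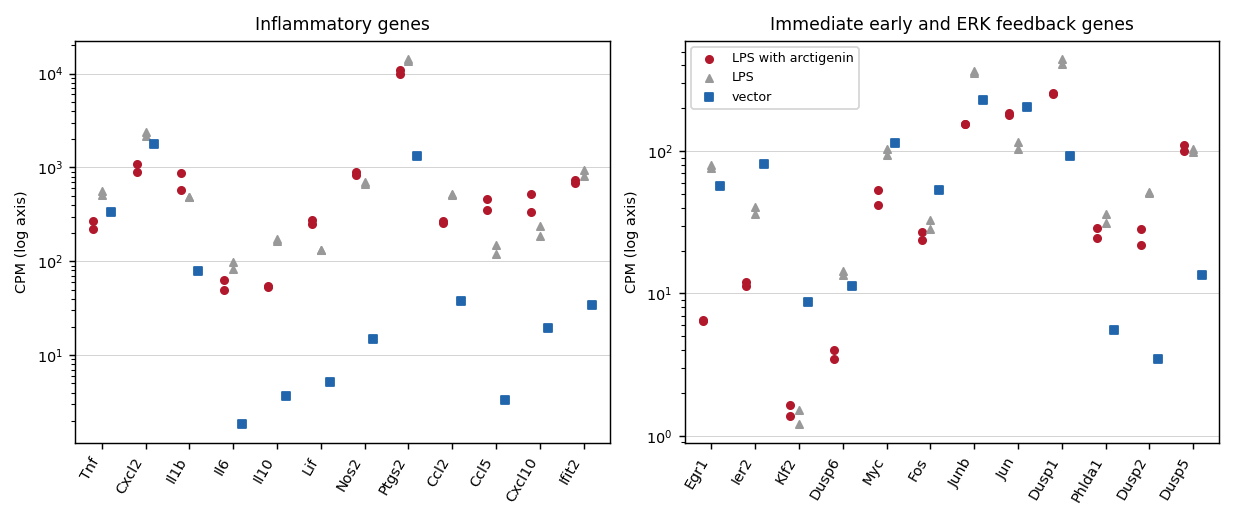
CPM on a log axis for 12 inflammatory genes (left) and 12 immediate early and ERK feedback genes (right), with red circles for the 2 LPS with arctigenin libraries, grey triangles for the 2 LPS libraries and a blue square for the vector library. Tnf and Cxcl2 have their red circles below the blue square and their triangles above it, while Il6, Il10, Nos2 and the other inflammatory genes shown have both above it; Egr1, at 6.39 and 6.48 CPM, lies below both other groups.

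The NF-kB pathway genes were higher on balance, 16 of 26, with 6 lower and a median log2 fold change of 0.55. Socs3, a feedback inhibitor of cytokine receptors, had 1177 and 979 CPM with LPS and arctigenin, 1513 and 1483 CPM with LPS and 53.9 CPM with vector (19.99-fold, adjusted p = 2.92e-08). The NF-kB inhibitor Nfkbia had 926 and 874 CPM, 854 and 946 CPM with LPS and 215 CPM with vector (4.19-fold). The deubiquitinase Tnfaip3 (A20) had 114 and 99.1 CPM, 229 and 243 CPM with LPS and 44.7 CPM with vector (2.38-fold). All 3 feedback genes were above vector, and of these Tnfaip3 and Socs3 were below LPS, 2.22-fold and 1.39-fold. The RNase Zc3h12a rose 4.00-fold. The subunits themselves moved little or fell: Rela was 1.48-fold and Relb 2.72-fold lower, and Nfkb1 (log2 0.12, 95% interval −0.10 to 0.34) and Nfkb2 (log2 0.02, −0.20 to 0.24) were not called, although Nfkb1 was called without LPS with arctigenin replicate 2 (log2 0.22, adjusted p = 0.0381). The adhesion molecule Icam1 fell 4.03-fold, to 36.5 and 35.6 CPM with LPS and arctigenin, against 145 CPM with vector.

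Immediate early genes and genes of ERK feedback were divided. Of 30 tested of 31 listed, 9 were higher and 12 lower, with a median log2 fold change of −0.28, and against LPS 3 were higher and 15 lower. Members called lower thus outnumbered those called higher. Beside Egr1, the nuclear protein Ier2 had 11.2 and 12.1 CPM with LPS and arctigenin, 40.3 and 36.3 CPM with LPS and 81.5 CPM with vector (log2 −2.80 ± 0.12, adjusted p = 5.7e-08). Dusp6, a phosphatase that acts on ERK, had 3.99 and 3.48 CPM, 14.4 and 13.5 CPM with LPS and 11.3 CPM with vector (3.03-fold lower). Both were below vector in each library with LPS and arctigenin. Myc was 2.39-fold, Fos 2.11-fold and Junb 1.48-fold lower than vector, and Jun was not called (log2 −0.16, 95% interval −0.35 to 0.03). Other phosphatases of the MAP kinases were higher: Dusp5 had 111 and 99.4 CPM with LPS and arctigenin, 103 and 98.9 CPM with LPS and 13.6 CPM with vector (7.75-fold), Dusp2 rose 7.24-fold and Dusp1 2.76-fold.

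Sensors of microbial products moved both ways. Of 24 tested of 25 listed, 8 were higher and 9 lower, with a median log2 fold change of −0.21. The inflammasome sensor Nlrp3 had 40.98 and 38.3 CPM with LPS and arctigenin, 68.01 and 71.6 CPM with LPS and 143 CPM with vector (3.59-fold lower, adjusted p = 1.32e-07). Tlr13, a receptor for bacterial ribosomal RNA, had 23.2 and 27.1 CPM, 91.1 and 84.5 CPM with LPS and 77.4 CPM with vector (3.08-fold lower). The LPS receptor Tlr4 was 1.63-fold, the lipoprotein receptor Tlr2 1.71-fold, the adaptor Myd88 1.75-fold and the adaptor Ticam2, which links TLR4 to TRIF, 2.49-fold lower. The LPS co-receptor Cd14 was higher, with 3021 and 2428 CPM with LPS and arctigenin, 1279 and 1287 CPM with LPS and 1409.9 CPM with vector (1.93-fold, adjusted p = 0.000213). The peptidoglycan sensor Nod1 rose 4.97-fold from 17 counts in vector.

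Antioxidant genes under NRF2 were higher in 14 of 22 tested and lower in 2, with a median log2 fold change of 0.61. Hmox1, which degrades heme, had 742 and 1157 CPM with LPS and arctigenin, 548 and 577 CPM with LPS and 112 CPM with vector (8.45-fold, adjusted p = 0.000190). The peroxiredoxin Prdx1 had 1346 and 1348 CPM, 806 and 792 CPM with LPS and 471 CPM with vector (2.86-fold). Gclm, of glutathione synthesis, rose 2.62-fold and ferritin light chain (Ftl1) 2.45-fold. The members called lower were Nfe2l2, which encodes NRF2 itself, at 1.39-fold, and the autophagy receptor Sqstm1 (p62), which had 471 and 682 CPM with LPS and arctigenin, 1265 and 1215 CPM with LPS and 2009 CPM with vector (3.49-fold). The letters TGACNNNGC of the antioxidant response element were in 6 of 20 list promoters (30%), against 12.4% of all.

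Heat shock genes of the cytosol, listed with the mitochondrial chaperonins Hspd1 and Hspe1, were mostly higher than both vector and LPS. Of 16 tested of 18 listed, 12 were higher and 1, Hspa4, lower than vector, with a median log2 fold change of 1.07. Of the 16, 13 were higher than LPS, where 22.8% of genes tested were called higher. With LPS alone 9 were already higher and 4 lower than vector, with a median of 0.30, where 27.1% of genes tested were called higher. Hspa8, the constitutive chaperone of the Hsp70 family, had 3856 and 3178 CPM with LPS and arctigenin, 1187 and 1372 CPM with LPS and 772 CPM with vector (4.56-fold, adjusted p = 5.99e-06). Hspa1b, its stress-induced relative, had 20.97 and 15.7 CPM, 1.91 and 4.42 CPM with LPS and 0.279 CPM with vector (64.3-fold, adjusted p = 0.000102). Hspa1b rested on 7 counts in vector and shares nearly all its sequence with Hspa1a, so its level is uncertain. The co-chaperones Hsph1 and Dnaja1 rose 3.38-fold and 2.62-fold and Hsp90ab1 rose 2.22-fold. The mitochondrial chaperonin Hspd1 was not called (log2 −0.01, 95% interval −0.17 to 0.15). A heat shock element, GAA, TTC and GAA with 2 free bases between each, was in 4 of 14 list promoters (28.6%), against 0.533% of all. They were those of Hsph1, Chordc1 (log2 0.21, not called, adjusted p = 0.0594) and the mitochondrial chaperonins Hspd1 and Hspe1 (log2 0.38, adjusted p = 0.00360). Hspd1 and Hspe1 lie on opposite strands of chromosome 1. Both promoters hold overlapping matches in reverse and then forward orientation. Whether the same stretch was counted for both genes was not tested.

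Stress genes of the endoplasmic reticulum did not follow. Among 20 chaperones and sensors tested, 7 were higher and 6 lower, with a median log2 fold change of 0.07. Herpud1, of protein degradation at the reticulum, had 22.04 and 28.9 CPM with LPS and arctigenin, 39.1 and 36.1 CPM with LPS and 114 CPM with vector (4.47-fold lower), and its partner Sel1l was 1.82-fold lower. The sensor Atf6 and the mannosidase-like Edem1 were 1.64-fold and 1.60-fold lower, while Manf and Calr were 1.37-fold and 1.35-fold higher. Hspa5 (BiP), the main chaperone of the reticulum, was not called (log2 −0.22, adjusted p = 0.0675), but was called lower with DESeq2 (adjusted p = 0.0196) and without LPS with arctigenin replicate 2 (adjusted p = 0.00589).

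Genes induced by ATF4 under amino acid shortage were lower nearly throughout. Of 19 tested of 20 listed, 17 were lower and 2 higher, against a background of 25.7% called lower, with a median log2 fold change of −0.74. The pseudokinase Trib3 had 15.4 and 27.2 CPM with LPS and arctigenin, 54.6 and 47.2 CPM with LPS and 198 CPM with vector (9.30-fold lower, adjusted p = 0.000104). Ddit3 (CHOP), a transcription factor of cell death, had 39.7 and 55.6 CPM, 90.95 and 85.8 CPM with LPS and 174 CPM with vector (3.65-fold lower). Atf5 was 3.67-fold lower and Ppp1r15a, which restores translation, 3.25-fold lower. Asns, asparagine synthetase, was 1.84-fold lower, Chac1, which breaks down glutathione, 2.48-fold lower and Atf4 itself 1.27-fold lower. The members above vector were Ddit4, an inhibitor of mTORC1, at 4.13-fold, and the chromatin protein Nupr1 at 1.83-fold.

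The C/EBP-ATF response element, searched as TGATGNAA on both strands, was in 5 of 19 list promoters (26.3%), against 4.07% of all. Among the 5 is Nupr1, which was above vector (log2 0.87). Stretches of Asns (chr6:7693210-7693289, minus strand) and Chac1 (chr2:119351013-119351092, plus strand) are shown as members that hold a match and fell, with the match in capitals.
Asns: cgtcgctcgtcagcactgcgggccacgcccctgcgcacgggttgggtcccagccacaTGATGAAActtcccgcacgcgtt
Chac1: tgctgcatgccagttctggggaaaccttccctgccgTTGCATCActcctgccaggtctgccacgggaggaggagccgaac

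Genes of glycolysis and hypoxia were higher in 16 of 21 tested and lower in 1, with a median log2 fold change of 0.62. Pfkfb3, which makes the activator of glycolysis fructose 2,6-bisphosphate, had 579 and 659 CPM with LPS and arctigenin, 1168 and 1172 CPM with LPS and 48.9 CPM with vector (12.7-fold, adjusted p = 8.26e-09). The glucose transporter Slc2a1 had 917 and 893 CPM, 617 and 629.9 CPM with LPS and 168 CPM with vector (5.38-fold). Hexokinase 1 (Hk1) rose 2.82-fold and the hypoxia factor Hif1a 1.90-fold. Pdk1, which inhibits pyruvate dehydrogenase, had 37.2 and 45.4 CPM with LPS and arctigenin, 28.9 and 23.8 CPM with LPS and 80.9 CPM with vector (1.96-fold lower). The pyruvate kinase Pkm was not called (log2 0.04, 95% interval −0.12 to 0.19).

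Most nuclear genes of oxidative phosphorylation were not called against vector. Of 28 tested, 8 were higher and 0 lower by edgeR, with a median log2 fold change of 0.09. At an unadjusted p under 0.05, 1 was lower, and DESeq2 and limma-voom called 0 lower. Against LPS 23 were higher, and with LPS alone 15 were lower than vector. In that last comparison, 27.1% of all genes tested were called higher and 24.9% lower. Ndufb10 of complex I and Cox6c of complex IV rose 1.49-fold and 1.48-fold over vector, and Cox7a2 had 61.4 and 57.1 CPM with LPS and arctigenin, 33.5 and 31.1 CPM with LPS and 41.3 CPM with vector (1.44-fold). Uqcrfs1 of complex III was 1.25-fold higher (adjusted p = 0.0223), a call lost with DESeq2 (adjusted p = 0.0720) and without LPS with arctigenin replicate 1 (adjusted p = 0.0619). DESeq2 called 5 members higher.

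Genes of cholesterol synthesis were higher in 19 of 23 tested and lower in 0 by edgeR, with a median log2 fold change of 0.88, and 18 of the 23 were higher than LPS. None was lower than vector at an unadjusted p under 0.05 (0 genes) or by DESeq2 or limma-voom (0 genes each). Hmgcs1, a synthase of the early pathway, had 277 and 229.5 CPM with LPS and arctigenin, 96.3 and 96.5 CPM with LPS and 63.1 CPM with vector (4.02-fold, adjusted p = 1.09e-06). The isomerase Idi1 had 219 and 239.8 CPM, 84.9 and 88.4 CPM with LPS and 66.5 CPM with vector (3.45-fold). Both genes stood clear of LPS and vector in each library. Their regulator Srebf2 rose 1.53-fold, and the farnesyl diphosphate synthase Fdps was not called (log2 −0.11, 95% interval −0.28 to 0.05). The letters TCACNCCAC of a sterol response element were in 1 of 16 list promoters (6.25%), against 1.22% of all.

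Other lipid genes moved both ways. Fasn, fatty acid synthase, had 214 and 205 CPM with LPS and arctigenin, 57.8 and 58.3 CPM with LPS and 38.3 CPM with vector (5.47-fold, adjusted p = 2.49e-08), and Acaca, which makes its substrate, rose 4.99-fold. The exporter Abca1, which loads cholesterol onto apolipoprotein A-I, had 504 and 396 CPM, 158 and 135 CPM with LPS and 70.5 CPM with vector (6.39-fold). The related exporter Abcg1 was 2.93-fold lower. Apolipoprotein E (Apoe) was near the detection limit, with 0.319 and 0.685 CPM with LPS and arctigenin, 0.392 and 1.15 CPM with LPS and 2.91 CPM with vector (log2 −2.52, or −3.16 without LPS with arctigenin replicate 2). In all, 7 of 16 tested were higher and 4 lower.

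**Figure D4:**
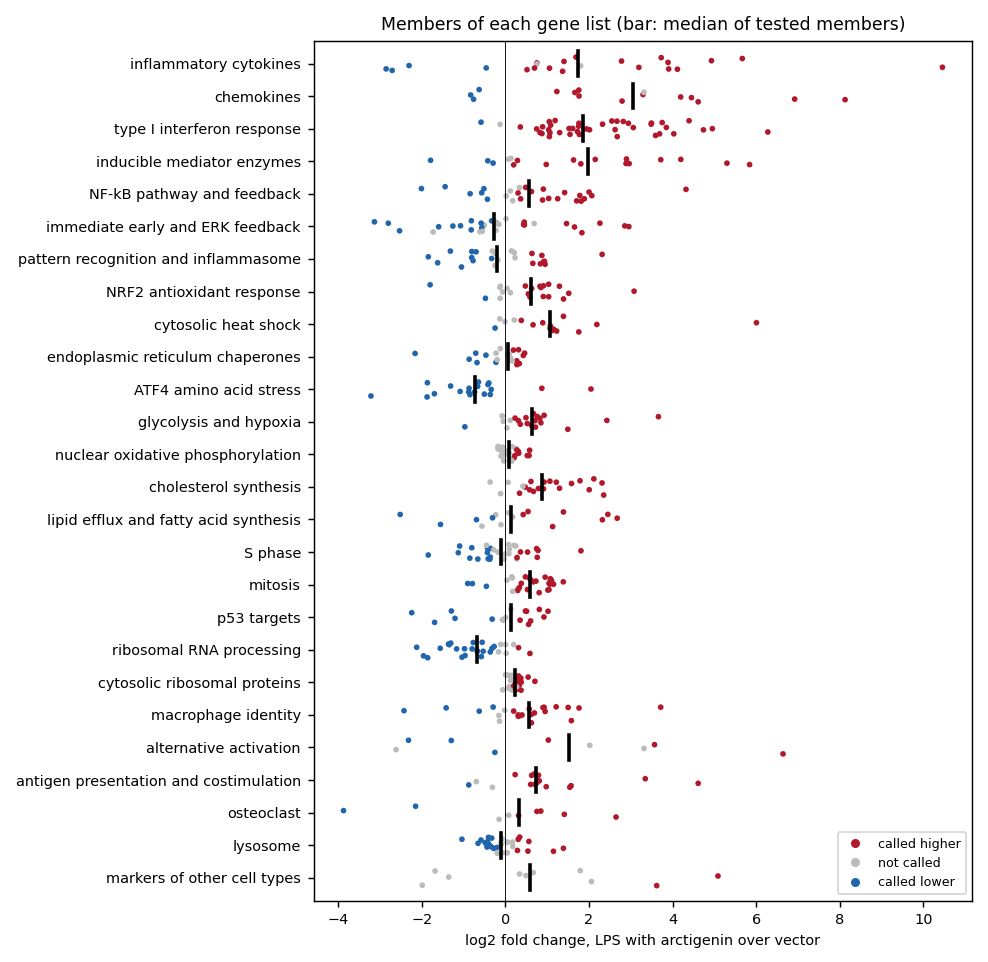
Log2 fold change of LPS with arctigenin over vector for the tested members of each of the 26 gene lists, red where called higher, blue where called lower and grey where not called, with a black bar at the median of all tested members. Genes with 0 counts in vector enter the median but are not drawn, and with these at their fold over 3 vector counts no median changed. The median was 3.04 for chemokines, −0.74 for ATF4 genes and −0.67 for genes of ribosomal RNA processing.

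Mitosis genes were above vector with LPS and arctigenin and below it with LPS alone. Of 28 tested, 20 were higher and 3 lower than vector with LPS and arctigenin, with a median log2 fold change of 0.58, whereas 26 were lower with LPS alone, with a median of −0.95. The difference between both, tested in the same edgeR fit as LPS with arctigenin against LPS, was called upward for all 28. Plk1, the kinase that drives entry into mitosis, had 53.1 and 45.1 CPM with LPS and arctigenin, 9.27 and 10.04 CPM with LPS and 22.8 CPM with vector (2.15-fold over vector, adjusted p = 8.15e-05). Cyclin A2 (Ccna2) had 174 and 157 CPM, 36.2 and 34.8 CPM with LPS and 78.99 CPM with vector (2.10-fold), and the proliferation marker Mki67 had 571 and 503 CPM, 186 and 194 CPM with LPS and 261 CPM with vector (2.06-fold). For each of these, the LPS with arctigenin libraries were highest, vector lay between and LPS was lowest. The spindle protein Troap rose 2.61-fold, Incenp of the chromosomal passenger complex 2.22-fold, the kinase Aurka 2.11-fold and cyclin B1 (Ccnb1) 1.93-fold.

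The members of that list below vector were the spindle motor Kif11, at 1.87-fold, the kinetochore protein Ndc80, at 1.73-fold, and the checkpoint protein Mad2l1, at 1.37-fold. Kif11 had 53.4 and 51.6 CPM with LPS and arctigenin, 28.8 and 28.2 CPM with LPS and 98.1 CPM with vector. The survivin gene Birc5 was not called (log2 0.15, 95% interval −0.32 to 0.63), nor was the kinase Aurkb (log2 0.29, −0.02 to 0.59), which was called with a correction for transcript length (adjusted p = 0.0365). Top2a, which untangles DNA, was 1.26-fold higher (adjusted p = 0.0163), and this call was lost with a correction for transcript length (log2 0.20, adjusted p = 0.107).

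Promoters of mitosis genes are known for the cell cycle homology region, TTTGAA, at which the DREAM complex represses them outside division, often beside CCAAT boxes. The letters were found on either strand in 16 of 23 list promoters (69.6%), against 18.1% of all, and CCAAT in 19 of 23 (82.6%), against 37.8% of all. Shown are Cdc20 (chr4:118437344-118437423, minus strand), the activator of the anaphase-promoting complex, and Ube2c (chr2:164769849-164769928, plus strand), its ubiquitin-conjugating enzyme, which were 1.66-fold and 2.02-fold higher than vector. Capitals mark the TTTGAA match, which in Ube2c lies on the opposite strand. Promoters with TTTGAA also include those of Kif11 and Ndc80, which were below vector (log2 −0.90 and −0.79).
Cdc20: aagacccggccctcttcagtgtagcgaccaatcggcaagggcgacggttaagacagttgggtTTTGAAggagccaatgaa
Ube2c: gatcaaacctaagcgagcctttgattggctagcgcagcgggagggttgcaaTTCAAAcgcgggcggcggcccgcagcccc

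Genes of DNA replication were higher than LPS, as mitosis genes were, but over vector more were lower than higher. Of 30 S phase genes tested, 7 were higher and 12 lower than vector, with a median log2 fold change of −0.11, and with LPS alone 2 were higher and 26 lower, with a median of −1.08. Against LPS, 26 were higher and 1 lower with LPS and arctigenin, with a median of 0.78. Thymidine kinase (Tk1) had 11.98 and 11.6 CPM with LPS and arctigenin, 5.98 and 6.58 CPM with LPS and 42.4 CPM with vector (3.59-fold lower, adjusted p = 2.72e-06). The primase subunit Prim1 was 2.14-fold lower, and the replication clamp Pcna was 1.35-fold lower. The helicase subunit Mcm5 had 103 and 105 CPM with LPS and arctigenin, 39.5 and 49.5 CPM with LPS and 104 CPM with vector, and was not called (log2 0.00, 95% interval −0.27 to 0.26). The licensing factor Cdc6 was not called either (log2 0.08, −0.38 to 0.53). Cyclin E1 (Ccne1), which opens S phase, was 3.50-fold higher with LPS and arctigenin. DESeq2 called 4 S phase genes higher in place of 7.

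**Figure D5:**
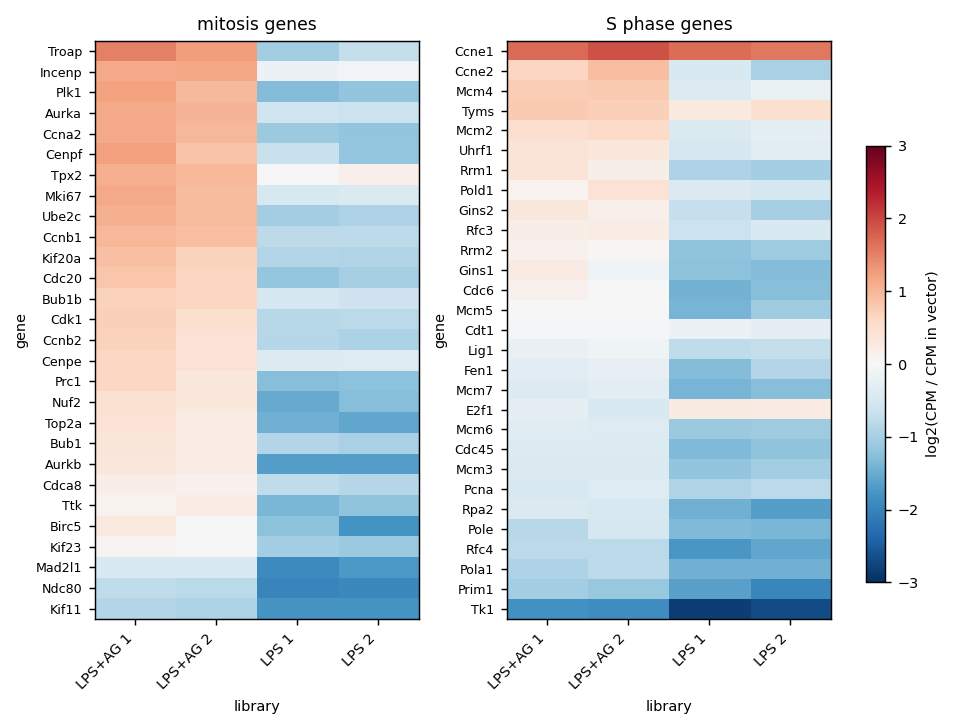
Heat map of log2 of the ratio of CPM to the vector library for the 28 mitosis genes (left) and the S phase genes reported here (right) in each of the 2 LPS with arctigenin and 2 LPS libraries, red above vector and blue below. The mitosis genes are red in the left columns and blue in the right columns for most rows, whereas the S phase genes run from red, led by Ccne1 (log2 1.81), to blue with LPS and arctigenin and are blue in most rows with LPS.

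Targets of p53 were divided, 8 of 17 higher and 5 lower, with a median log2 fold change of 0.13. The cell cycle inhibitor Cdkn1a (p21) had 725 and 643 CPM with LPS and arctigenin, 365 and 355 CPM with LPS and 338 CPM with vector (2.03-fold, adjusted p = 6.87e-06). Gadd45a, of growth arrest, had 9.31 and 14.2 CPM, 31.04 and 31.6 CPM with LPS and 55.6 CPM with vector (4.73-fold lower). Plk2 was 3.24-fold, the antiproliferative gene Btg2 2.45-fold and the death gene Bbc3 (PUMA) 2.31-fold lower, and its relative Pmaip1 (NOXA) was not called (log2 0.01, 95% interval −0.16 to 0.17).

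Genes that make ribosomes and genes that form them differed. Of 28 genes of ribosomal RNA processing tested, 2 were higher and 21 lower than vector, with a median log2 fold change of −0.67. With LPS alone 0 were higher and 27 lower than vector, with a median of −0.92, where 24.9% of genes tested were called lower. Against LPS, 14 were higher and 1 lower with LPS and arctigenin, with a median of 0.19, where 22.8% of genes tested were called higher. The nucleolar GTPase Gnl3 had 24.5 and 27.2 CPM with LPS and arctigenin, 28.8 and 33.2 CPM with LPS and 113 CPM with vector (4.36-fold lower, adjusted p = 2.69e-07). The assembly factor Tsr1 was 3.89-fold, the RNA polymerase I subunit Polr1b 3.63-fold and Rrs1 2.95-fold lower. The members above vector were the nucleolar chaperone Npm1, at 1.24-fold, and Mybbp1a (log2 0.59), while nucleolin (Ncl) lay near the threshold (log2 0.20, adjusted p = 0.0591) and was called higher with DESeq2 (adjusted p = 0.0456). The E-box CACGTG, the letters bound by MYC and its relatives, was in 7 of 23 list promoters (30.4%), against 7.09% of all. Among 32 cytosolic ribosomal proteins, 31 were higher and 0 lower with LPS and arctigenin than with LPS. With LPS alone 2 were higher and 8 lower than vector. Against vector, 19 of the 32 were higher with LPS and arctigenin by small amounts (median log2 0.24). By edgeR, at an unadjusted p under 0.05, or by DESeq2 or limma-voom, 0 were lower than vector. Rplp1 rose 1.46-fold, Rps6 1.63-fold and Rpl19 1.30-fold, and Rpl3 was not called (log2 0.09, 95% interval −0.07 to 0.25). Only 12 were called higher without LPS with arctigenin replicate 1, and likewise with only the vector and LPS with arctigenin libraries, and ribosomal protein pseudogenes make these levels uncertain.

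Genes of macrophage identity were higher in 17 of 25 tested and lower in 4. Csf1r, the receptor for the growth factor Csf1, had 77.7 and 101 CPM with LPS and arctigenin, 109.7 and 98.7 CPM with LPS and 479.5 CPM with vector (5.37-fold lower, adjusted p = 3.09e-06). Lysozyme (Lyz2) had 1651 and 1613 CPM, 1749 and 1641 CPM with LPS and 4358 CPM with vector (2.67-fold lower). The Fc receptor Fcgr1 rose 3.39-fold, the scavenger receptors Cd36 and Msr1 2.99-fold and 2.83-fold, and the integrin Itgam 1.54-fold. The efferocytosis receptor Mertk had 3 counts in vector, and its ratio was 13.7 (counting interval 4.49 to 68.4). The transcription factor Maf, with 0 counts there, was 4.65-fold over the floor of 3 vector counts. This fold was 3.09 without LPS with arctigenin replicate 1 and 6.24 without replicate 2.

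Genes of alternative activation, as named from the response to interleukin 4, gave no single direction. Of 10 tested of 14 listed, 4 were higher and 3 lower. Besides Mrc1 and Arg1, the interleukin 4 receptor Il4ra had 121 and 99.8 CPM with LPS and arctigenin, 111 and 101 CPM with LPS and 9.28 CPM with vector (11.9-fold, adjusted p = 1.54e-07). The transcription factor Klf4 had 13.4 and 15.2 CPM, 31.6 and 31.1 CPM with LPS and 71.4 CPM with vector (4.99-fold lower), and the lectin Clec10a was 2.45-fold lower.

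Genes of antigen presentation and costimulation were higher in 13 of 16 tested and lower in 1. Cd274, the checkpoint ligand PD-L1, had 471 and 482 CPM with LPS and arctigenin, 732 and 696 CPM with LPS and 19.5 CPM with vector (24.5-fold, adjusted p = 1.66e-09). The costimulatory ligand Cd86 had 19.6 and 12.1 CPM, 10.1 and 13.95 CPM with LPS and 1.55 CPM with vector (10.2-fold), and Cd80 rose 1.97-fold. The peptide transporter Tap1 and tapasin (Tapbp), both of class I loading, rose 2.91-fold and 2.97-fold. The exception was Cd74, the invariant chain of class II, which was 1.84-fold lower.

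Osteoclast genes, of interest because RAW264.7 cells can form osteoclasts, were higher in 5 of 9 tested and lower in 2, while DESeq2 called 3 higher. The proton pump subunit Atp6v0d2 had 0.319 and 0.316 CPM with LPS and arctigenin, 4.31 and 5.37 CPM with LPS and 4.74 CPM with vector (14.7-fold lower, adjusted p = 2.31e-05). The fusion protein Dcstamp was 4.44-fold lower and its relative Ocstamp 6.27-fold higher, from 33 counts in vector, and the metalloproteinase Mmp9 was 2.66-fold higher.

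Lysosome genes leaned lower. Of 30 tested, 7 were higher and 13 lower than vector, with a median log2 fold change of −0.11, whereas with LPS alone 19 were higher, with a median of 0.40, and 25 were called lower with LPS and arctigenin than with LPS. Gpnmb, a membrane glycoprotein of lysosomes, had 52.1 and 59.9 CPM with LPS and arctigenin, 298 and 284 CPM with LPS and 115 CPM with vector (2.06-fold below vector, 5.19-fold below LPS). The hexosaminidase Hexa was 1.57-fold below vector, and cathepsin D (Ctsd) was not called (log2 0.05, 95% interval −0.11 to 0.21). The cholesterol carrier Npc2 and cathepsin L (Ctsl) rose 2.62-fold and 2.22-fold. The E-box CACGTG, contained in the element bound by TFEB, was in 8 of 23 list promoters (34.8%), against 7.09% of all.

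Among 33 markers of other cell types, only 10 passed the count filter, and 2 of these were higher than vector. By edgeR, at an unadjusted p under 0.05, or by DESeq2 or limma-voom, 0 were lower. All 33 together had only 8.25 CPM in vector, so a fall had little room to be called, and its absence says little. A lower call did appear without LPS with arctigenin replicate 2, as given at the end. S100a8 rose 33.97-fold, and the endothelial marker Pecam1 had 2.55 and 2.48 CPM with LPS and arctigenin, 0.981 and 0.803 CPM with LPS and 0.199 CPM with vector, from 5 counts there. The fibroblast gene Dcn had 0.426 and 0.475 CPM, 3.87 and 3.36 CPM with LPS and 0.319 CPM with vector, and was not called against vector (log2 0.49, 95% interval −0.98 to 1.96). Whether other cells contributed to any of the lists was not tested.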

How the data were processed

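RNA sequencing of RAW264.7 cells gave 5 libraries. The deposited table holds estimated counts per RefSeq transcript (75959 transcripts). Build mm9 and the tools HISAT2, Trimmomatic, HTSeq, Cufflinks and DESeq are named, per the submitters' processing notes, with their roles and versions not given in the sources used here. Whether counting used the strand is not stated, and reads from genes that overlap, or from an antisense partner, cannot be told apart, and genes with near-identical copies (Hspa1a and Hspa1b, the Oas, Gbp, Ccl and H2 families, ribosomal protein pseudogenes) are uncertain.

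These values were added up by gene symbol and rounded. Testing used edgeR 4.0.16 and R 4.3.3 (filterByExpr at minimum count 10 and minimum total 15, TMM, robust quasi-likelihood fit, Benjamini-Hochberg adjustment over 11575 genes). The fit took all 5 libraries and left 2 residual degrees of freedom, and the biological coefficient of variation was 7.13%. Vector, with 1 library, is taken to vary as the other groups do. TMM factors were 0.942 and 0.956 for LPS with arctigenin, 0.981 and 0.972 for LPS and 1.16 for vector. Standard errors divide the absolute log2 fold change by the root of F. Where vector had 0 counts the fold is the pooled LPS with arctigenin level over a floor of 3 counts in the vector library. It allows for counting error in vector only, and a single LPS with arctigenin library can lie below it. With 1 to 3 counts in vector the ratio of counts has an exact 95% interval, which covers counting error only. The script was tested on simulated data in which few genes changed and every library, vector included, had the same spread. That simulation cannot check the assumption about vector or the scaling where many genes change.

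The members and the 26 gene lists were chosen with earlier results of these data known. A rule named 137 genes: the 12 largest rises and falls and the 6 farthest above and the 6 farthest below both vector and LPS (mean log2 CPM of at least 2), up to 4 called members of each list, the 5 genes with the most counts with LPS and arctigenin, and 17 key genes. Another 102 genes were chosen after their values were seen. A few of these genes are not reported here, but stay in the counts. DESeq2 1.42.0 and limma 3.58.1 (voom) were alternatives, as were other scaling, filters, samples, transcripts and a correction for length.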

Additional observations from a re-analysis of the deposited data

How the results depend on the processing

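The count of genes called, 6503 of 11575, stayed within 1.5 times under other scaling (RLE, 6483), no count filter (6545), a minimum of 10 counts (6512), DESeq2 (5136 of 11350), limma-voom (6715), only the vector and LPS with arctigenin libraries (6003) and a correction for transcript length chosen after seeing the data (6377). Leaving out each stimulated library in turn gave 5881 to 6472 genes, 3244 to 3514 higher and 2630 to 2958 lower, 1105 to 1189 at least 2-fold higher and 1098 to 1230 at least 2-fold lower. With transcripts in place of genes, 2475 of 35464 were called, 1673 higher and 802 lower, and 586 were at least 2-fold lower; the cause was not tested. Higher calls were then 67.6% of all calls, against 54.2% with genes.

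The setting with transcripts in place of genes was not applied to single genes or to lists, which leaves 11 alternatives for these. Of 239 genes chosen, 137 were taken by the rule and 102 were chosen after their values were seen. Among the 239, 219 kept their direction and side of the threshold under all 11 alternatives, and 0 of 2628 comparisons reversed a called direction. The call changed in 24 comparisons by loss and in 20 by gain, over 20 genes. Calls lost were those of Acp5, Alox5, Ccl17, Cd68, Csf2, Edn1, Ifnb1, Ldha, Ptprc, Top2a and Uqcrfs1, and calls gained were those of Aurkb, Chordc1, Ctsb, Hspa5, Mpeg1, Ncl, Nfkb1, Npc1 and Sdha. Medians of several lists moved. That of osteoclast genes went from 0.31 to 0.53 without LPS with arctigenin replicate 1, and that of NF-kB genes from 0.55 to 0.62 without replicate 2. The median of macrophage identity went from 0.57 to 0.42 with the length correction. For S phase it went from −0.11 to −0.14 with only the vector and LPS with arctigenin libraries. Among the lists, DESeq2 called 1 mediator enzyme lower in place of 3, 5 genes of oxidative phosphorylation higher in place of 8, 4 S phase genes higher in place of 7 and 3 osteoclast genes higher in place of 5. Without LPS with arctigenin replicate 1, and with only the vector and LPS with arctigenin libraries, 12 ribosomal proteins were higher in place of 19. Genes of oxidative phosphorylation called lower numbered 1 with RLE, 1 without either LPS with arctigenin replicate and 2 with the length correction, in place of 0, and without LPS with arctigenin replicate 2, 1 marker of other cell types was lower.

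No paired analysis was possible because vector has 1 library, which carries no replicate number. With 1 vector library, its own variation was not measured, and leaving it out ends the comparison. Genes with fewer than about 3 counts in vector are limited by depth.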
